A study of Mus musculus with 9 samples.

Results

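The Rab GTPases are the largest branch of the Ras superfamily of small GTP-binding proteins. Each marks particular membranes, and in its GTP-bound state it recruits effectors that bud, move, tether and fuse vesicles. Exchange factors (GEFs) load a Rab with GTP, GTPase-activating proteins (GAPs) switch it off, and GDI proteins carry its prenylated, GDP-bound form through the cytosol. In neutrophils, the granule-bearing phagocytes of innate immunity, Rabs take part in granule release, phagosome maturation and the recycling of surface receptors.

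The members were the 59 of 24532 genes in the deposited series table whose symbol is Rab followed by a number and at most a letter and a digit. They were listed as 90 RefSeq transcripts, and 17 members had more than 1. The samples were neutrophils sorted by flow cytometry from the lung, the peripheral blood or the bone marrow of wild type C57BL/6 mice, with 3 libraries of polyadenylated RNA per tissue and 9 in all. No age, treatment or transgene is given for any group. The labels call the 3 libraries of a tissue biological replicates without naming animals, so p-values measure the spread between these samples.

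Reads summed to between 42045548 and 56796219 per library, and a floor of 3 reads equalled 0.0528 to 0.0714 CPM. Such floors cover counting error only. Members took 0.509% to 0.590% of the reads in lung, 0.385% to 0.429% in blood and 0.498% to 0.531% in bone marrow, ranges that did not overlap between blood and either other tissue. Levels are given as CPM (reads scaled to a common library size) on totals rescaled by edgeR's trimmed-mean factors, always for replicates 1, 2 and 3 in turn. The scaling factors were 1.085, 1.256 and 1.05 in blood and 0.9366, 0.8985 and 0.7761 in bone marrow. CPM thus ran above unscaled values in every bone marrow library and below them in every blood library. The scaling factors of the lung libraries were 1.19, 1.14 and 0.791, so CPM in lung replicate 3 ran above its unscaled values. That library was the highest of the lung libraries for 29 of 49 tested members in CPM, beside 39.8% of all genes tested. In FPKM, the deposited level per transcript length, it was highest for 12 of 49 members. Lung replicate 3 also stood apart on the first principal component, at -24.3 against -155 and -132 for the other lung libraries.

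The labelled cell type was checked against 12 neutrophil markers, which summed to 27529 to 50018 CPM in lung, 31150 to 44907 CPM in blood and 88873 to 129390 CPM in bone marrow. The lowest of them, Ly6g and Cebpe, were at 15.4 to 27.0 CPM and 4.31 to 8.17 CPM in lung. Transcripts of other cells differed between libraries of the same tissue. The 9 fibroblast markers summed to 1682, 1389 and 99.0 CPM in lung, 7.50 to 43.6 CPM in blood and 42.2 to 168 CPM in bone marrow. The 10 epithelial markers summed to 891, 283 and 77.7 CPM in lung, 23.7 to 38.2 CPM in blood and 24.0 to 92.6 CPM in bone marrow. The 7 erythroid markers summed to 10.6, 9.19 and 32.7 CPM in lung, 530.1, 559 and 18.8 CPM in blood and 955, 766 and 47.5 CPM in bone marrow. The 8 B-cell markers summed to 413, 351 and 37.1 CPM in lung, 338, 331 and 54.2 CPM in blood and 119, 66.6 and 26.5 CPM in bone marrow, lowest in replicate 3 of each tissue. In bulk RNA, fewer cells of a type and less RNA per cell cannot be told apart.

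Promoters are shown for a pair of members that were higher in lung than in both other tissues, Rab20 and Rab8b, and a pair that were higher in bone marrow, Rab3d and Rab23. Sequences are RefSeq's on GRCm38.p6, 5′ to 3′ on the gene's strand, from 250 bases before to 50 bases after the annotated start. Capitals mark matches on either strand to 10 motifs that were searched as letters. AP-1 was searched as TGANTCA and the cAMP response element as TGACGTCA. The E-box was searched as CACGTG, and the hypoxia response core, which lies inside it, as ACGTG. C/EBP was searched as TTGCNNAA and PU.1 as GAGGAA. The GC box was searched as GGGCGG, the CCAAT box by its own letters, the TATA box as TATAAA, and NRF1 by its palindromic motif. The windows are chr8:11478591-11478890, minus strand for Rab20, chr9:66919656-66919955, minus strand for Rab8b, chr9:21918134-21918433, minus strand for Rab3d and chr1:33719646-33719945, plus strand for Rab23. The Rab20 window lies upstream of the start that the series table gives.
Rab20: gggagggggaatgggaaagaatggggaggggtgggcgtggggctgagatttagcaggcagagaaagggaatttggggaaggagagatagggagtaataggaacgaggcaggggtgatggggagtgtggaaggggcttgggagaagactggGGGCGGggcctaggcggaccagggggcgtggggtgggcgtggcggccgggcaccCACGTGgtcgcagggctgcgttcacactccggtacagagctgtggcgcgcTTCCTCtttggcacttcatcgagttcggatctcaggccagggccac
Rab8b: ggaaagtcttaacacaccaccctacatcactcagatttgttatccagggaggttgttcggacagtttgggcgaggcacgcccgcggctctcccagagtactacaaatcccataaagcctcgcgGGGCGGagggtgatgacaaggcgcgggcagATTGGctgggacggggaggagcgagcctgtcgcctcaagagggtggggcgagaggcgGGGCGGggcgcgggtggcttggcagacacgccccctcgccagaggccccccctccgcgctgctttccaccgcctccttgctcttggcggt
Rab3d: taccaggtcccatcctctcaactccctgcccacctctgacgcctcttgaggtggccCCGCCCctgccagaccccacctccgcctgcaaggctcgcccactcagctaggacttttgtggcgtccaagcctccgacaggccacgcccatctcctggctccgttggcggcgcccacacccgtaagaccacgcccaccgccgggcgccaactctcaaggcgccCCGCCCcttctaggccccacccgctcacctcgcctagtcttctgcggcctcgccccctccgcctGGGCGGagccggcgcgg
Rab23: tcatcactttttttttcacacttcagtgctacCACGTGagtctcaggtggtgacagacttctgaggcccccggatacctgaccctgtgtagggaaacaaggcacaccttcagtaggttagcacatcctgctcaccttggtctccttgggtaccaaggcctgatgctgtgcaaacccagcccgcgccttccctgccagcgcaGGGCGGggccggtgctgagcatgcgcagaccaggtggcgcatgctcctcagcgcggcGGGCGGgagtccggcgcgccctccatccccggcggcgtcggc
All 4 held the GC box, which 41 of the 60 promoters listed for 48 matched members held (68.3%), beside 35.7% of 32851 promoters in the table. The E-box was in Rab20 and Rab23, in 6 member promoters and in 7.15% of all promoters. The PU.1 letters stood only in Rab20 among the 4, in 11 member promoters (18.3%) and in 28.3% of all. CCAAT stood only in Rab8b among the 4, in 26 member promoters (43.3%) and in 37.4% of all. A match is a description of the letters, and a missing one says only that these letters are not in the window.

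More Rab members were lower than higher in lung and in blood when set against bone marrow, while lung against blood was split 8 to 7. Of 59 members, 49 had enough reads to be tested. With edgeR's quasi-likelihood fit of 13510 genes and p-values adjusted by Benjamini and Hochberg's method, 26 of the 49 differed among the tissues at an adjusted p under 0.05, beside 46.1% of all genes. In lung against blood, 8 members were higher and 7 lower, 30.6% of those tested, beside 28.9% of all genes (13.2% higher and 15.7% lower). In lung against bone marrow, 6 were higher and 20 lower, 53.1% of those tested, beside 38.2% of all genes (15.6% higher and 22.6% lower). In blood against bone marrow, none was higher and 13 were lower, 26.5% of those tested, beside 21.4% of all genes (8.34% higher and 13.1% lower). At an unadjusted p under 0.05, 2 were higher and 18 lower in that last comparison. DESeq2 found 2 higher there and limma-voom 0.

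The median log2 fold change of the 49 members was -0.35 in lung against bone marrow and -0.37 in blood against bone marrow, beside 0.06 and -0.05 over all genes. In lung against blood it was -0.00, beside 0.05. The median standard error was 0.24 to 0.25 for members and 0.32 for all genes. The libraries of the 2 tissues did not overlap for 18, 33 and 29 members in lung against blood, lung against bone marrow and blood against bone marrow, beside 41.6%, 49.0% and 45.4% of all genes. With limma on log2(FPKM + 1), the member median was -0.16 in lung against bone marrow, beside 0.13 over all genes. In blood against bone marrow it was -0.018, beside 0.13. The split into higher and lower members also varied with the settings. Other settings named beside a gene are keeping genes without a filter or at 1 CPM or more in 3 libraries, limma on log2(FPKM + 1), a fit of the 6 libraries compared, the separate RSEM counts of lung and blood, and the replicate number as a block. With DESeq2 size factors lung against bone marrow had 9 higher and 14 lower, with upper-quartile scaling 10 and 12, and with the DESeq2 test 11 and 14. The same settings gave 2431 higher and 2248 lower, 3105 and 2130, and 3145 and 2603 among the 13510 genes. Lung against blood had 8 higher and 4 lower with DESeq2 size factors, 10 and 5 with the DESeq2 test, and 7 and 11 with limma on FPKM. Among all genes these were 1885 and 1430, 2472 and 1840, and 1390 and 2919. With the replicate number as a block, 9 were higher and 10 lower in lung against blood, and 10 higher and 24 lower in lung against bone marrow. The block gave 2073 higher and 2678 lower, and 2454 and 3519, among all genes. Leaving out single libraries moved the called members between 9 (without blood replicate 2) and 19 (without lung replicate 3) in lung against blood, between 17 (without bone marrow replicate 2) and 32 (without lung replicate 3) in lung against bone marrow, and between 3 (without blood replicate 2) and 18 (without lung replicate 3) in blood against bone marrow. There the counts were also 5 and 6 without blood replicates 1 and 3, and 8 and 6 without bone marrow replicates 2 and 3. Among all genes, leaving out blood replicate 2 or lung replicate 3 gave 2338 and 5852 calls in lung against blood, beside 3900 in the main fit. These fits gave 1236 and 3965 in blood against bone marrow, beside 2892. In lung against bone marrow, leaving out bone marrow replicate 2 or lung replicate 3 gave 3258 and 6984, beside 5158.

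**Figure D1:**
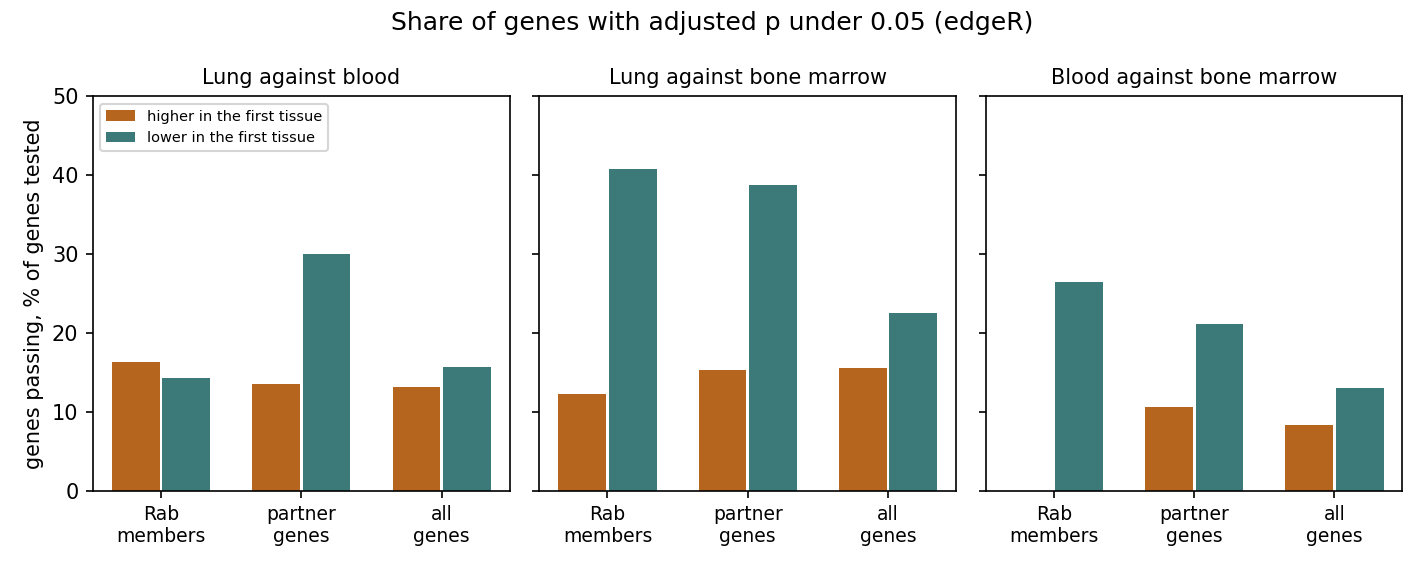
Share of tested genes with an adjusted p under 0.05 (y axis, percent) that were higher or lower in the first-named tissue, for Rab members, Rab partner genes and all genes. In lung against bone marrow, 20 of 49 members were lower in lung, and in blood against bone marrow no member was higher in blood.

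By level per transcript length, Rab7 led in each tissue, at 658 ± 136 FPKM in lung, 206 ± 17.5 FPKM in blood and 358 ± 29.4 FPKM in bone marrow (mean ± SD, n = 3). Rab20 was second in lung at 357 ± 63.0 FPKM, and ranked 13 in blood and 15 in bone marrow. Lung next had Rab44 and Rab8b, at 149 ± 11.1 and 137 ± 9.2 FPKM, while Rab8a and Rab27a followed Rab7 in blood at 143 ± 15.2 and 96.4 ± 8.1 FPKM, and Rab44 and Rab8a followed it in bone marrow at 127 ± 11.8 and 117 ± 4.6 FPKM. Libraries of Rab44 and Rab8b overlapped in lung, as did those of Rab44 and Rab8a in bone marrow, while those of Rab8a and Rab27a did not overlap in blood. Rab7 alone held 24.3% to 30.9% of summed member CPM in lung, 10.9% to 12.9% in blood and 14.5% to 16.3% in bone marrow.

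**Figure D2:**
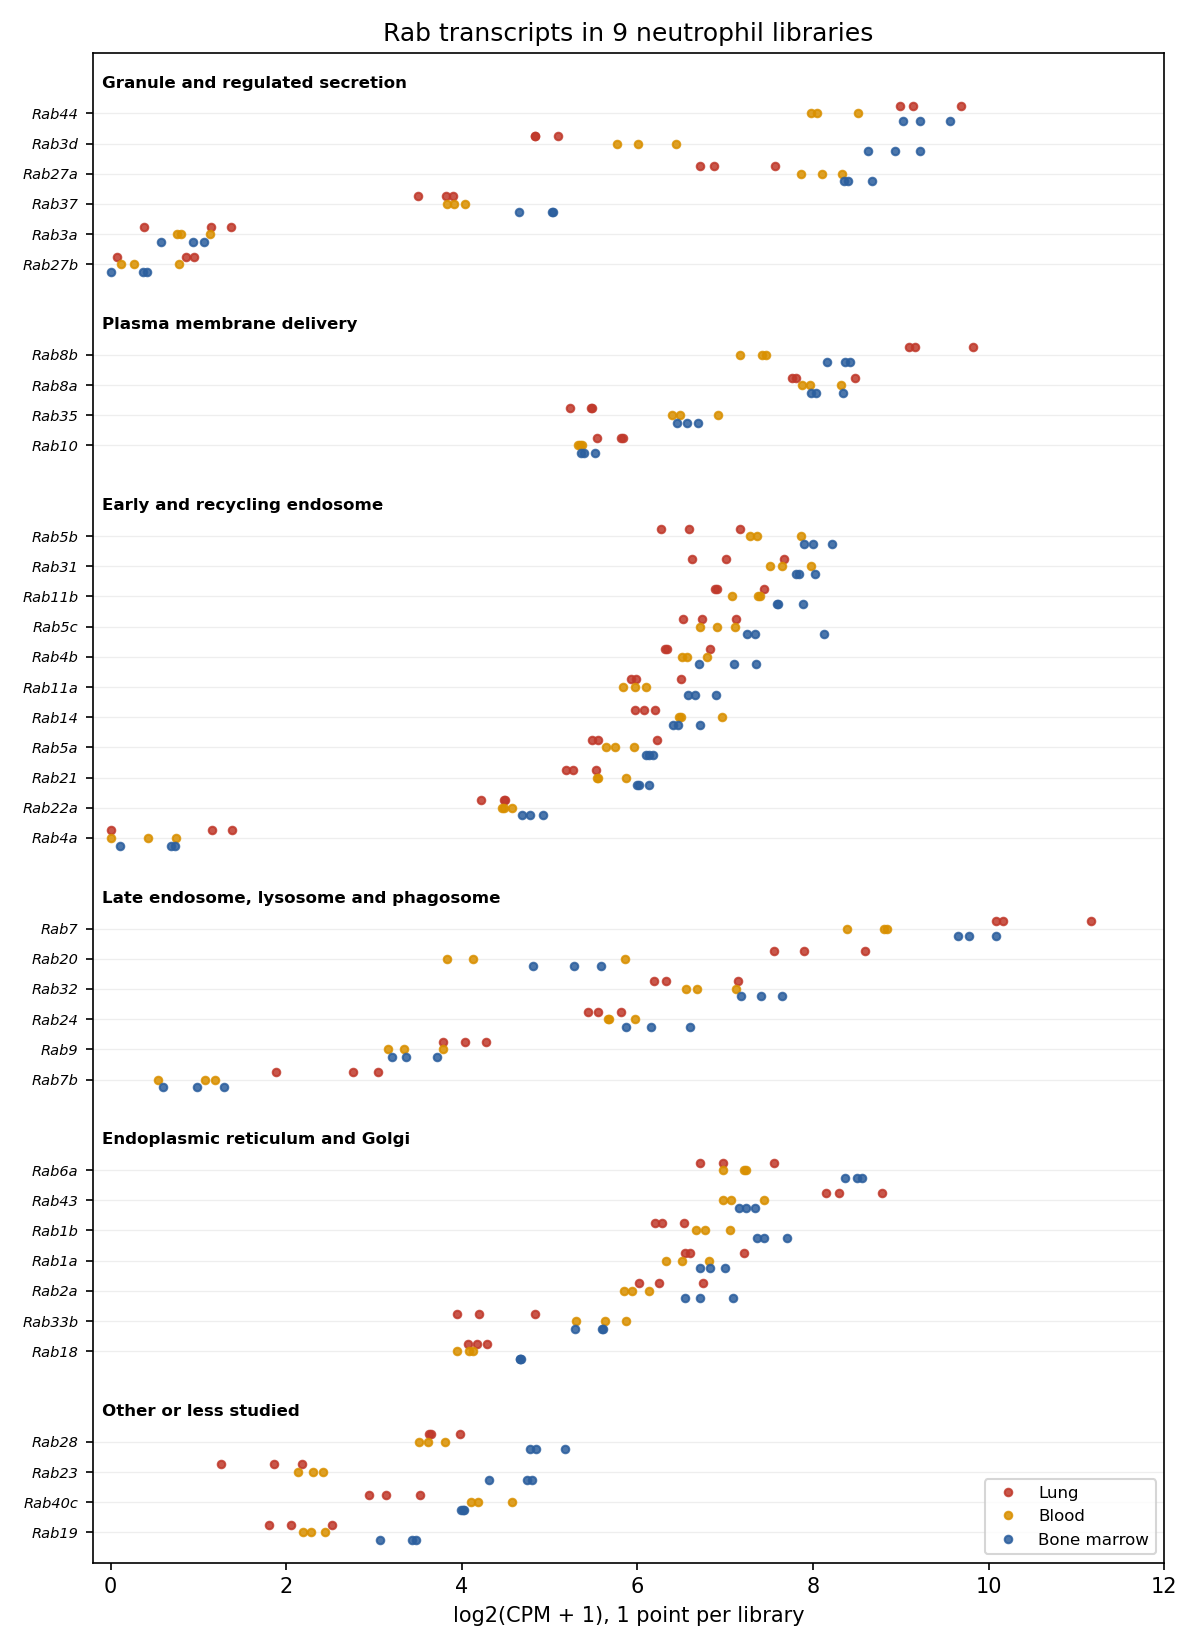
Level of 38 Rab members on a log2(CPM + 1) axis, 1 point per library, by role and with lung above blood above bone marrow in each row. Within their own rows, the lung points lie furthest right for Rab20, Rab7, Rab8b and Rab43, and the bone marrow points for Rab3d, Rab6a, Rab28 and Rab23.

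Of the 6 tested Rabs of granules and regulated secretion, 3 fell in lung against bone marrow and none rose, 3 fell in blood against bone marrow, and 1 rose and 2 fell in lung against blood. Over all genes, 15.6% rose and 22.6% fell in lung against bone marrow, 8.34% and 13.1% in blood against bone marrow, and 13.2% and 15.7% in lung against blood. Rab3d, which sits on secretory granules of exocrine and mast cells (Entrez gene 19340, chromosome 9, 21907492 to 21918183, minus strand), had 27.4, 27.5 and 33.1 CPM in lung, 63.2, 53.4 and 85.7 CPM in blood and 393, 489 and 593 CPM in bone marrow. No library of one tissue overlapped any of another, with lung lowest and bone marrow highest. The log2 fold change was -4.07 ± 0.25 (adjusted p = 1.62e-05) in lung against bone marrow, -2.87 ± 0.24 (adjusted p = 9.48e-05) in blood against bone marrow and -1.20 ± 0.22 (adjusted p = 0.00497) in lung against blood. All 3 calls held in every alternative run. Its longer RefSeq transcript took 0.0750% to 21.0% of its estimated reads in lung, 11.6% to 31.1% in blood and 6.25% to 9.38% in bone marrow.

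Rab27a, which docks granules at the plasma membrane (Entrez gene 11891, chromosome 9, 73044810 to 73097614, plus strand), had 104, 116 and 188 CPM in lung, 275, 231 and 322 CPM in blood and 326, 335 and 407 CPM in bone marrow. Every lung library was below every other library. The log2 fold change was -1.39 ± 0.25 (adjusted p = 0.00264) in lung against bone marrow, held in every alternative, and -1.02 ± 0.25 (adjusted p = 0.0149) in lung against blood. The second call was lost without lung replicate 2 and blood replicates 1, 2 and 3 (adjusted p = 0.0543 to 0.142), taken 1 at a time. Rab27a also lost its call in lung against blood with DESeq2 size factors (adjusted p = 0.0616). Rab37, a mast-cell granule Rab, had 10.4, 13.1 and 14 CPM in lung, 13.2, 14.1 and 15.4 CPM in blood and 24.1, 31.7 and 31.8 CPM in bone marrow. Rab37 fell in lung against bone marrow by 1.23 ± 0.17 (adjusted p = 0.000624) on the log2 scale and in blood against bone marrow by 1.04 ± 0.17 (adjusted p = 0.00314). Bone marrow libraries were all above the others, while lung and blood overlapped. The call of blood against bone marrow was lost without blood replicates 1 and 2 (adjusted p = 0.0557 to 0.0589), taken 1 at a time. Cd300lf overlaps Rab37 on the opposite strand by gene span but by 0 exonic bases.

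Rab44, a large atypical Rab with a calcium-binding domain expressed in blood-forming cells (Entrez gene 442827, chromosome 17, 29135056 to 29148976, plus strand), had 564, 508 and 824 CPM in lung, 262, 252 and 365 CPM in blood and 522, 597 and 755 CPM in bone marrow. Lung and bone marrow overlapped, and all blood libraries lay below both. It rose in lung against blood, at 1.11 ± 0.26 (adjusted p = 0.0121) on the log2 scale, and fell in blood against bone marrow, at -1.09 ± 0.26 (adjusted p = 0.0163). The call of lung against blood was lost without blood replicates 1 and 2 (adjusted p = 0.0988 to 0.101), taken 1 at a time, and that of blood against bone marrow without blood replicates 1, 2 and 3 and bone marrow replicates 2 and 3 (adjusted p = 0.0548 to 0.193), taken 1 at a time. Rab44 also lost its call in blood against bone marrow with no filter (adjusted p = 0.072). Rab3a, the synaptic vesicle Rab, had 1.58, 1.22 and 0.298 CPM in lung, 1.2, 0.695 and 0.747 CPM in blood and 1.1, 0.921 and 0.486 CPM in bone marrow, and Rab27b, the closest relative of Rab27a, 0.817, 0.937 and 0.0497 CPM in lung, 0.0872, 0.713 and 0.204 CPM in blood and 0.334, 0.294 and 0 CPM in bone marrow. Neither passed in any comparison, and in both the lowest lung library was lung replicate 3, which also had the lowest fibroblast, epithelial and B-cell sums of the lung libraries. The part of other cells in these low levels was not tested.

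Effectors act with the secretory Rabs in docking and fusing granules. Of 16 tested, 8 fell and none rose in lung against bone marrow, 5 fell and 1 rose in blood against bone marrow, and 6 fell and 1 rose in lung against blood. All genes tested had 15.6% higher and 22.6% lower, 8.34% higher and 13.1% lower, and 13.2% higher and 15.7% lower in the same order of comparisons. Sytl1, a synaptotagmin-like effector of Rab27, had 4.67, 3.89 and 4.25 CPM in lung, 5.54, 5.89 and 6.64 CPM in blood and 31.9, 43.7 and 47.6 CPM in bone marrow. Lung and blood were both far below bone marrow, at -3.27 ± 0.19 (adjusted p = 1.23e-05) and -2.77 ± 0.19 (adjusted p = 4.22e-05) on the log2 scale. Unc13d, the priming factor Munc13-4 that binds Rab27a, had 90.1, 101 and 119 CPM in lung, 157, 149.7 and 192 CPM in blood and 280.4, 326 and 350.5 CPM in bone marrow. No tissues overlapped, and it fell in lung against bone marrow by 1.63 ± 0.18 (adjusted p = 0.000176). Its log2 fold change was -0.94 ± 0.17 (adjusted p = 0.00563) in blood against bone marrow, a call lost without blood replicates 1 and 2 (adjusted p = 0.12 to 0.137), taken 1 at a time, and -0.69 ± 0.17 (adjusted p = 0.0169) in lung against blood, a call lost without lung replicates 1 and 2 and blood replicates 1, 2 and 3 (adjusted p = 0.0527 to 0.189), taken 1 at a time. Unc13d also lost its call in lung against blood with DESeq2 size factors, no filter and at least 1 CPM in 3 libraries (adjusted p = 0.0619 to 0.092). Stxbp2, the syntaxin-binding protein Munc18-2, averaged 195 ± 44.3 CPM in lung, 226 ± 35.8 CPM in blood and 468 ± 82.1 CPM in bone marrow (SD, n = 3), and changed by -1.26 ± 0.22 (adjusted p = 0.00232) on the log2 scale in lung against bone marrow. In blood against bone marrow it was -1.05 ± 0.22 (adjusted p = 0.0102), a call lost without blood replicates 1, 2 and 3 (adjusted p = 0.0581 to 0.159), taken 1 at a time. Stxbp2 also lost its call in blood against bone marrow with no filter (adjusted p = 0.0533). Myo5a, the myosin that carries Rab27a vesicles, averaged 52 ± 9.71 CPM in lung, 71.4 ± 3.59 CPM in blood and 174 ± 12.7 CPM in bone marrow, and fell by 1.74 ± 0.16 (adjusted p = 8.56e-05) in lung against bone marrow and by 1.28 ± 0.16 (adjusted p = 0.000782) in blood against bone marrow.

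**Figure D3:**
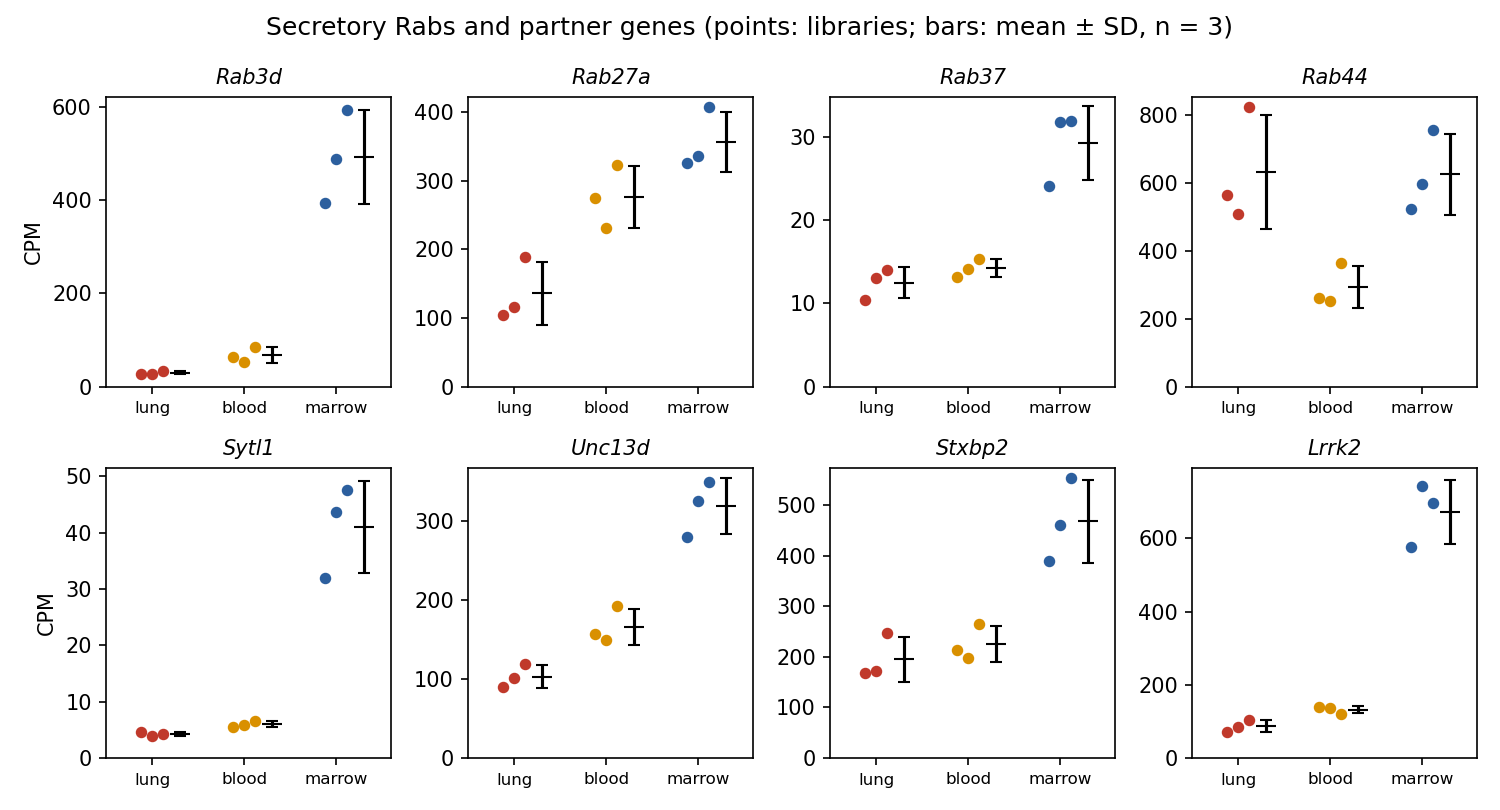
CPM of Rab3d, Rab27a, Rab37 and Rab44 and of 4 partner genes (y axes from 0), with lung, blood and bone marrow from left to right, points for libraries and bars for mean ± SD (n = 3). Rab3d, Sytl1 and Lrrk2 are far higher in all 3 bone marrow libraries than elsewhere, and Rab44 is lowest in blood.

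Among the Rabs that deliver cargo to the plasma membrane, 2 of 7 tested rose and 1 fell in lung against blood, 1 rose and 1 fell in lung against bone marrow, and 1 fell in blood against bone marrow. Among all genes, 13.2% rose and 15.7% fell in lung against blood, 15.6% and 22.6% in lung against bone marrow, and 8.34% and 13.1% in blood against bone marrow. Rab8b, which carries Golgi and recycling cargo to the surface (Entrez gene 235442, chromosome 9, 66843664 to 66919705, minus strand), had 573, 545 and 902 CPM in lung, 170.1, 143 and 176 CPM in blood and 342, 285 and 328 CPM in bone marrow. All lung libraries were above all bone marrow libraries, and those above all blood libraries. Its log2 fold change was 2.04 ± 0.23 (adjusted p = 0.000574) in lung against blood and 1.08 ± 0.22 (adjusted p = 0.00536) in lung against bone marrow, both held in every alternative. In blood against bone marrow it was -0.96 ± 0.22 (adjusted p = 0.0153), lost without blood replicates 1, 2 and 3 and bone marrow replicates 1 and 3 (adjusted p = 0.0597 to 0.217), taken 1 at a time. Rab8b also lost its call in blood against bone marrow with DESeq2 size factors and no filter (adjusted p = 0.0516 to 0.0863). Its close relative Rab8a had 216, 224 and 355 CPM in lung, 249, 234 and 318 CPM in blood and 252, 262 and 324 CPM in bone marrow, ranges that overlapped in all tissues, and passed in none.

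Rab35, of fast recycling to the plasma membrane (Entrez gene 77407, chromosome 5, 115631987 to 115647158, plus strand), had 36.8, 43.7 and 43.3 CPM in lung, 88.9, 83.1 and 119.7 CPM in blood and 86.2, 94 and 102 CPM in bone marrow. Lung was below blood and bone marrow without overlap, while these overlapped each other. The log2 fold change was -1.24 ± 0.17 (adjusted p = 0.00125) in lung against blood and -1.19 ± 0.17 (adjusted p = 0.000685) in lung against bone marrow, both held in every alternative. Rab10, which delivers glucose transporter vesicles in fat cells, had 45.4, 55.2 and 56.3 CPM in lung, 39.8, 39.2 and 40.3 CPM in blood and 41, 40.2 and 44.7 CPM in bone marrow and rose in lung against blood by 0.39 ± 0.12 (adjusted p = 0.0355). The change was lost with any library left out except lung replicate 1 (adjusted p = 0.0639 to 0.248). Rab10 also lost its call in lung against blood with limma on FPKM, no filter, 6 libraries and RSEM counts (adjusted p = 0.0529 to 0.219), where limma on FPKM gave a log2 fold change of 0.24. Rab10 did pass in lung against bone marrow with DESeq2 size factors, upper-quartile scaling, the DESeq2 test, limma on FPKM, at least 1 CPM in 3 libraries and the replicate block, and without lung replicate 1 (adjusted p = 0.000978 to 0.0498). Rab10os, an antisense gene, shares 143 exonic bases with it. Rab12, Rab13 and Rab15 passed in none, and Rab13 and Rab15 stayed at or below 1.45 CPM in every library.

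Among the early and recycling endosome Rabs, none of 12 tested rose in any comparison, while 2 fell in lung against blood, 6 in lung against bone marrow and 1 in blood against bone marrow. For comparison, 13.2% of all genes rose and 15.7% fell in lung against blood, 15.6% and 22.6% in lung against bone marrow, and 8.34% and 13.1% in blood against bone marrow. Rab5b, of early endosome fusion (Entrez gene 19344, chromosome 10, 128677183 to 128696268, minus strand), had 76.3, 94.9 and 143 CPM in lung, 164, 155 and 232 CPM in blood and 237, 254 and 296 CPM in bone marrow. Lung was lowest and bone marrow highest without overlap. It fell in lung against bone marrow by 1.33 ± 0.26 (adjusted p = 0.00397), held in every alternative, and in lung against blood by 0.81 ± 0.26 (adjusted p = 0.042), lost with any library left out except lung replicate 3 (adjusted p = 0.059 to 0.308). Rab5b also lost its call in lung against blood with DESeq2 size factors, the DESeq2 test, no filter, at least 1 CPM in 3 libraries, 6 libraries and RSEM counts (adjusted p = 0.0802 to 0.142). The related Rab5a had 43.9, 45.8 and 73.5 CPM in lung, 61.5, 49.1 and 52.6 CPM in blood and 67.8, 69.1 and 71.6 CPM in bone marrow, with lung overlapping both other tissues, and did not pass. Rab5a did pass in lung against bone marrow without lung replicate 3 (adjusted p = 0.00413). Rab5a did pass in blood against bone marrow without lung replicate 3 (adjusted p = 0.0492). Rab5c had 90.9, 105 and 139 CPM in lung, 119, 104 and 137 CPM in blood and 151, 161 and 279 CPM in bone marrow. Its fall of 0.82 ± 0.26 (adjusted p = 0.0369) in lung against bone marrow was lost with any library left out except lung replicate 3 and bone marrow replicate 1 (adjusted p = 0.0518 to 0.132). Rab5c also lost its call in lung against bone marrow with DESeq2 size factors, upper-quartile scaling, the DESeq2 test, no filter, at least 1 CPM in 3 libraries and 6 libraries (adjusted p = 0.0843 to 0.121), where upper-quartile scaling gave a log2 fold change of -0.51.

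Rab11a and Rab11b drive slow recycling. Rab11a had 62.2, 60.1 and 89.6 CPM in lung, 67.7, 56.2 and 61.9 CPM in blood and 99.96, 94.1 and 118 CPM in bone marrow, and Rab11b had 119, 117 and 173 CPM in lung, 168, 134 and 165 CPM in blood and 192, 193 and 235 CPM in bone marrow. Bone marrow was above lung in every library for both. In lung against bone marrow their log2 fold changes were -0.56 ± 0.18 (adjusted p = 0.038) and -0.60 ± 0.19 (adjusted p = 0.0383). Those calls were lost with any library left out except lung replicate 3 (adjusted p = 0.0671 to 0.199) for Rab11a and with any library left out except lung replicate 3 (adjusted p = 0.0676 to 0.197) for Rab11b. Rab11b also lost its call in lung against bone marrow with DESeq2 size factors, upper-quartile scaling, the DESeq2 test, no filter, at least 1 CPM in 3 libraries and 6 libraries (adjusted p = 0.127 to 0.2), where upper-quartile scaling gave a log2 fold change of -0.29. Rab11b did pass in lung against blood with limma on FPKM (adjusted p = 0.0165). Rab11a also fell in blood against bone marrow by 0.75 ± 0.18 (adjusted p = 0.019), lost without blood replicates 1, 2 and 3 and bone marrow replicates 1 and 3 (adjusted p = 0.0515 to 0.256), taken 1 at a time. Rab11a also lost its call in lung against bone marrow with DESeq2 size factors, upper-quartile scaling, the DESeq2 test, no filter, at least 1 CPM in 3 libraries and 6 libraries (adjusted p = 0.161 to 0.21), where upper-quartile scaling gave a log2 fold change of -0.25. Rab11a also lost its call in blood against bone marrow with DESeq2 size factors, no filter and at least 1 CPM in 3 libraries (adjusted p = 0.0538 to 0.107).

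Rab21, of integrin uptake, had 35.6, 37.5 and 45.2 CPM in lung, 46.1, 45.6 and 57.6 CPM in blood and 63.8, 63 and 69.3 CPM in bone marrow. No 2 tissues overlapped, and it fell in lung against bone marrow by 0.73 ± 0.14 (adjusted p = 0.004), lost without blood replicates 1 and 2 (adjusted p = 0.0505 to 0.0532), taken 1 at a time. Rab21 did pass in lung against blood with limma on FPKM and the replicate block, and without lung replicate 3 (adjusted p = 0.0144 to 0.0308). Rab21 did pass in blood against bone marrow without lung replicate 3 (adjusted p = 0.0449). Rab14, between the Golgi and endosomes, had 62, 66.3 and 72.3 CPM in lung, 87.8, 89.7 and 124 CPM in blood and 87.2, 83.8 and 104 CPM in bone marrow and fell in lung against blood by 0.59 ± 0.17 (adjusted p = 0.0294), lost without lung replicates 1 and 2, blood replicates 1, 2 and 3 and bone marrow replicate 2 (adjusted p = 0.0506 to 0.252), taken 1 at a time. Lung lay below both other tissues, which overlapped. Rab14 also lost its call in lung against blood with DESeq2 size factors, the DESeq2 test, no filter, at least 1 CPM in 3 libraries, 6 libraries and RSEM counts (adjusted p = 0.0665 to 0.13). Rab14 did pass in lung against bone marrow with the replicate block, and without lung replicate 3 (adjusted p = 0.0131 to 0.0404). Rab14 did pass in blood against bone marrow with limma on FPKM (adjusted p = 0.0439). Rab22a, of endosomal recycling, had 21.5, 17.6 and 21.4 CPM in lung, 21.3, 20.9 and 22.8 CPM in blood and 26.3, 24.7 and 29.4 CPM in bone marrow. Its fall of 0.41 ± 0.13 (adjusted p = 0.0346) in lung against bone marrow was lost with any library left out except lung replicates 1 and 3 (adjusted p = 0.0576 to 0.187). Rab22a also lost its call in lung against bone marrow with DESeq2 size factors, upper-quartile scaling, the DESeq2 test, limma on FPKM, no filter, at least 1 CPM in 3 libraries and 6 libraries (adjusted p = 0.134 to 0.552), where upper-quartile scaling gave a log2 fold change of -0.09. Rab31, of traffic from the Golgi to endosomes, had 97.8, 128 and 203 CPM in lung, 199, 182 and 251 CPM in blood and 223, 228 and 259 CPM in bone marrow, and Rab4b, of fast recycling, had 78.5, 80.2 and 112 CPM in lung, 90.1, 93.8 and 110.1 CPM in blood and 103, 136 and 162 CPM in bone marrow. Neither passed, and lung overlapped blood in both. Rab31 did pass in lung against blood with limma on FPKM and the replicate block, and without lung replicate 3 (adjusted p = 0.00308 to 0.034). Rab31 did pass in lung against bone marrow with limma-voom, limma on FPKM and the replicate block, and without lung replicate 3 (adjusted p = 0.00297 to 0.0471). Rab4b did pass in lung against bone marrow with the replicate block, and without lung replicate 3 or without bone marrow replicate 1 (adjusted p = 0.00836 to 0.0351). Rab4a had 1.62, 1.24 and 0 CPM in lung, 0.349, 0.678 and 0 CPM in blood and 0.667, 0.608 and 0.0767 CPM in bone marrow, near or below the floor in several libraries, with its highest values in the 2 lung libraries that had high fibroblast and B-cell sums. Rab25 stayed at or below 0.469 CPM.

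Of 9 tested Rabs of the late endosome, lysosome and phagosome, 4 rose and none fell in lung against blood, 2 rose and 2 fell in lung against bone marrow, and 1 fell in blood against bone marrow. Of all genes, 13.2% rose and 15.7% fell in lung against blood, 15.6% and 22.6% in lung against bone marrow, and 8.34% and 13.1% in blood against bone marrow. Rab20, of phagosome maturation in macrophages (Entrez gene 19332, chromosome 8, 11453977 to 11478499, minus strand), had 238, 187 and 384 CPM in lung, 57, 13.2 and 16.5 CPM in blood and 37.8, 27 and 46.9 CPM in bone marrow. Every lung library was above every other library, while blood overlapped bone marrow, with blood replicate 1 above the other 2 blood libraries. The log2 fold change was 3.22 ± 0.58 (adjusted p = 0.00447) in lung against blood and 2.86 ± 0.57 (adjusted p = 0.00477) in lung against bone marrow. Both calls held in every alternative, and leaving out 1 library gave 2.85 to 4.19 and 2.47 to 3.05. In FPKM the lung libraries had 379, 286 and 406, again with replicate 3 highest. This highest lung library had the lowest fibroblast and epithelial sums of the lung libraries. Of 10 monocyte and macrophage markers, which summed to 443, 522 and 638 CPM in lung, 642, 642 and 732 CPM in blood and 304, 328 and 399 CPM in bone marrow, 2 were highest in lung replicate 3 of the lung libraries and the other 8 were lowest there. Csf1r had 242, 307 and 475 CPM in lung and 501 to 609 CPM in blood, and Adgre1 had 54.5, 78.6 and 126 CPM in lung and 91.5 to 112 CPM in blood. Mertk stood at 17.7, 28.2 and 1.86 CPM in lung and 0 to 0.156 CPM in blood, and C1qa at 28.0, 20.6 and 12.6 CPM in lung and 0.0869 to 0.392 CPM in blood. The part of such cells in Rab20 was not tested.

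Rab7, which brings late endosomes and phagosomes to lysosomes (Entrez gene 19349, chromosome 6, 87999106 to 88045270, minus strand), had 1143, 1087 and 2305 CPM in lung, 457, 335 and 449 CPM in blood and 879, 805 and 1086 CPM in bone marrow. All lung libraries were above all bone marrow libraries, and these above all blood libraries. It rose in lung against blood by 1.87 ± 0.32 (adjusted p = 0.00356), held in every alternative. It fell in blood against bone marrow by 1.16 ± 0.32 (adjusted p = 0.0308), lost without blood replicates 1, 2 and 3 and bone marrow replicates 1, 2 and 3 (adjusted p = 0.0717 to 0.251), taken 1 at a time. Lung against bone marrow did not pass. Rab7 also lost its call in blood against bone marrow with DESeq2 size factors, no filter and at least 1 CPM in 3 libraries (adjusted p = 0.0573 to 0.105). Rab7 did pass in lung against bone marrow with upper-quartile scaling, the DESeq2 test, limma on FPKM and the replicate block (adjusted p = 0.00275 to 0.0405). Rab7b, of transport from late endosomes to the Golgi, had 7.28, 5.78 and 2.68 CPM in lung, 1.29, 1.11 and 0.453 CPM in blood and 0.977, 0.51 and 1.46 CPM in bone marrow. All lung libraries were above the others, and lung replicate 3 was the lowest of them. The log2 fold change was 2.46 ± 0.59 (adjusted p = 0.0145) in lung against blood, lost without lung replicate 1 (adjusted p = 0.0522), and 2.42 ± 0.59 (adjusted p = 0.0122) in lung against bone marrow, lost without bone marrow replicate 2 (adjusted p = 0.0533). Its lung values ordered as the fibroblast, epithelial and B-cell sums did, and their part in the result was not tested.

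Rab32, of lysosome-related organelles, had 71.8, 79.5 and 141 CPM in lung, 101, 93.2 and 138 CPM in blood and 144, 168 and 199 CPM in bone marrow, and fell in lung against bone marrow by 0.80 ± 0.28 (adjusted p = 0.0473), lost with any library left out except lung replicate 3 (adjusted p = 0.0621 to 0.175). Rab32 also lost its call in lung against bone marrow with DESeq2 size factors, upper-quartile scaling, the DESeq2 test, no filter, at least 1 CPM in 3 libraries and 6 libraries (adjusted p = 0.101 to 0.169), where upper-quartile scaling gave a log2 fold change of -0.51. Rab32 did pass in blood against bone marrow without lung replicate 3 (adjusted p = 0.0416). Rab24, linked to autophagy, had 46, 42.5 and 55.1 CPM in lung, 49.9, 50 and 61.8 CPM in blood and 57.6, 70.2 and 95.9 CPM in bone marrow. Its fall of 0.64 ± 0.20 (adjusted p = 0.0335) in lung against bone marrow was lost with any library left out except lung replicate 3 and bone marrow replicate 1 (adjusted p = 0.0708 to 0.132). Rab24 also lost its call in lung against bone marrow with DESeq2 size factors, upper-quartile scaling, the DESeq2 test, limma on FPKM, no filter, at least 1 CPM in 3 libraries and 6 libraries (adjusted p = 0.0715 to 0.142), where upper-quartile scaling gave a log2 fold change of -0.32. Prelid1, on the opposite strand, shares 1258 of the 2015 exonic bases of Rab24 and went the same way there, at -0.997 on the log2 scale (adjusted p = 0.00637), and whether counting used strand is not given in the sources used here. Rab9, of return from late endosomes to the Golgi, had 15.4, 12.8 and 18.4 CPM in lung, 12.8, 7.93 and 9.13 CPM in blood and 9.3, 8.23 and 12.2 CPM in bone marrow and did not pass. Rab9 did pass in lung against blood with upper-quartile scaling, the DESeq2 test and the replicate block (adjusted p = 0.0266 to 0.0444). Rab9 did pass in lung against bone marrow with DESeq2 size factors, upper-quartile scaling, the DESeq2 test, limma on FPKM, at least 1 CPM in 3 libraries and the replicate block (adjusted p = 0.00726 to 0.0436). Rab29 and Rab39 passed in none, and all values of Rab39 were under 1 CPM. Rab34, of lysosome positioning, had 4.23, 2.33 and 0.422 CPM in lung, 0.196, 0.139 and 0 CPM in blood and 1.1, 0.627 and 1.12 CPM in bone marrow. Its lung values ordered as the fibroblast sums did. It passed in lung against blood, at 4.34 ± 1.15 (adjusted p = 0.0209) on the log2 scale, and the part of those cells in this result was not tested.

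**Figure D4:**
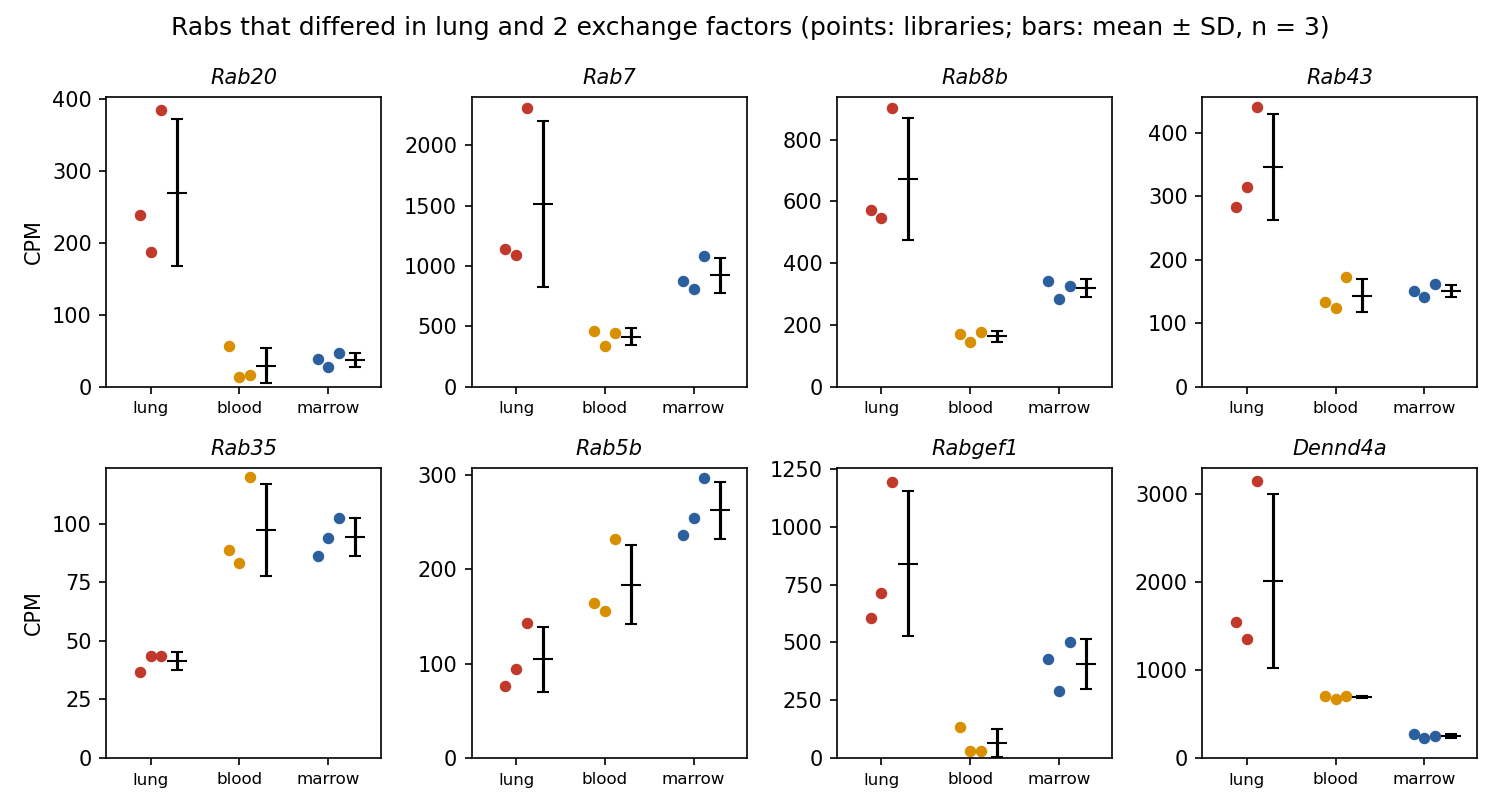
CPM of 6 Rab members and of the exchange factors Rabgef1 and Dennd4a (y axes from 0), with lung, blood and bone marrow from left to right, points for libraries and bars for mean ± SD (n = 3). Rab20, Rab7, Rab8b and Rab43 are highest in every lung library, and Rab35 and Rab5b are lowest there.

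Of 10 tested Rabs of the endoplasmic reticulum and Golgi, 3 rose and 4 fell in lung against bone marrow, none rose and 4 fell in blood against bone marrow, and 1 rose and 1 fell in lung against blood. All genes tested gave 15.6% higher and 22.6% lower in lung against bone marrow, 8.34% and 13.1% in blood against bone marrow, and 13.2% and 15.7% in lung against blood. Rab6a, of retrograde transport through the Golgi, had 104, 124 and 187 CPM in lung, 147, 125 and 149.7 CPM in blood and 362, 329 and 375 CPM in bone marrow. Bone marrow was above both other tissues without overlap. Rab6a fell in lung against bone marrow by 1.36 ± 0.22 (adjusted p = 0.00151), held in every alternative, and in blood against bone marrow by 1.34 ± 0.22 (adjusted p = 0.00346), lost without blood replicates 1 and 2 (adjusted p = 0.0582 to 0.0787), taken 1 at a time. Mrpl48, on the opposite strand, shares 708 of the 3728 exonic bases of Rab6a and also fell, at -1.38 and -1.82 in those comparisons (adjusted p = 0.00132 and 0.000668), with counting by strand not given in the sources used here. Its own level was far below that of Rab6a, at 7.90, 7.02 and 6.90 CPM in lung, 5.10, 5.44 and 5.55 CPM in blood and 13.4, 19.1 and 24.1 CPM in bone marrow. The part of Mrpl48 in the Rab6a counts was not tested.

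Rab1b, of transport from the endoplasmic reticulum to the Golgi, had 72.5, 76.9 and 91.5 CPM in lung, 109, 101 and 132 CPM in blood and 164, 173 and 208 CPM in bone marrow. No tissues overlapped. It fell in lung against bone marrow by 1.18 ± 0.17 (adjusted p = 0.000773), held in every alternative, and in blood against bone marrow by 0.67 ± 0.17 (adjusted p = 0.0207), lost without blood replicates 1, 2 and 3 and bone marrow replicates 2 and 3 (adjusted p = 0.0655 to 0.306), taken 1 at a time. Rab1b also lost its call in blood against bone marrow with DESeq2 size factors, limma on FPKM, no filter and at least 1 CPM in 3 libraries (adjusted p = 0.0645 to 0.136), where limma on FPKM gave a log2 fold change of -0.31. Rab1b did pass in lung against blood with upper-quartile scaling, limma on FPKM and the replicate block, and without lung replicate 3 (adjusted p = 0.00248 to 0.0499). Its relative Rab1a had 95.6, 92 and 147 CPM in lung, 112, 79.5 and 90.1 CPM in blood and 113, 104 and 127 CPM in bone marrow and passed in none. Rab2a, on the same route, had 75.1, 63.8 and 106 CPM in lung, 60.3, 56.8 and 69.3 CPM in blood and 92.4, 104 and 136 CPM in bone marrow and fell in blood against bone marrow by 0.83 ± 0.22 (adjusted p = 0.0265), lost without blood replicates 1, 2 and 3 and bone marrow replicates 2 and 3 (adjusted p = 0.0705 to 0.258), taken 1 at a time. Rab2a also lost its call in blood against bone marrow with DESeq2 size factors, no filter and at least 1 CPM in 3 libraries (adjusted p = 0.0608 to 0.111). Rab2a did pass in lung against blood with upper-quartile scaling (adjusted p = 0.0398). Rab2a did pass in lung against bone marrow with the replicate block, and without lung replicate 3 (adjusted p = 0.0184 to 0.0253). Rab18, of lipid droplets and the endoplasmic reticulum, had 18.5, 17.1 and 15.8 CPM in lung, 16.4, 15.9 and 14.5 CPM in blood and 24.4, 24.4 and 24.3 CPM in bone marrow, and bone marrow was above both without overlap. It fell by 0.51 ± 0.12 (adjusted p = 0.0101) in lung against bone marrow and by 0.65 ± 0.12 (adjusted p = 0.00587) in blood against bone marrow, lost without blood replicates 2 and 3 (adjusted p = 0.0534 to 0.0709), taken 1 at a time. Rab18 lost its call in lung against bone marrow with upper-quartile scaling, limma on FPKM and no filter (adjusted p = 0.057 to 0.371), where upper-quartile scaling gave a log2 fold change of -0.19. Rab18 also lost its call in blood against bone marrow with limma on FPKM (adjusted p = 0.436), where limma on FPKM gave a log2 fold change of -0.24.

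Rab43, of the Golgi and its exit sites (Entrez gene 69834, chromosome 6, 87788853 to 87812164, minus strand), went the other way, with 283, 314 and 441 CPM in lung, 133, 124 and 173 CPM in blood and 150.1, 141 and 161 CPM in bone marrow. Every lung library was above all others, and blood and bone marrow overlapped. The log2 fold change was 1.27 ± 0.21 (adjusted p = 0.00288) in lung against blood and 1.20 ± 0.21 (adjusted p = 0.00216) in lung against bone marrow, both held in every alternative. One of its 4 listed transcripts took 5.74% to 10.2% of its estimated reads in lung, 0.489% to 2.59% in blood and 2.12% to 3.22% in bone marrow, without overlap between lung and the rest. A second annotated gene, Gm45140, covers 4164 of its 5526 exonic bases on the same strand, so reads could be split between them. Rab33b, of the Golgi and autophagosomes, had 14.5, 17.4 and 27.6 CPM in lung, 48.7, 38.5 and 57.4 CPM in blood and 38.2, 47.8 and 47.6 CPM in bone marrow, with lung below both other tissues. Rab33b fell in lung against bone marrow by 1.17 ± 0.25 (adjusted p = 0.00637), held in every alternative, and in lung against blood by 1.28 ± 0.25 (adjusted p = 0.00601), lost without blood replicate 3 (adjusted p = 0.0646). Rab33b did pass in blood against bone marrow with limma on FPKM (adjusted p = 0.0442). Rab30 and Rab6b rose in lung against bone marrow but stayed at or below 6.01 CPM in every library, and Rab2b passed in none. Rab30 had 6.01, 2.69 and 2.63 CPM in lung and 0.548, 0.745 and 0.614 CPM in bone marrow. Rab6b had 4.43, 4.40 and 1.69 CPM in lung and 1.91, 0.941 and 0.563 CPM in bone marrow, which overlapped. Lung values of both ordered as the fibroblast, epithelial and B-cell sums did, and the part of those cells was not tested.

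**Figure D5:**
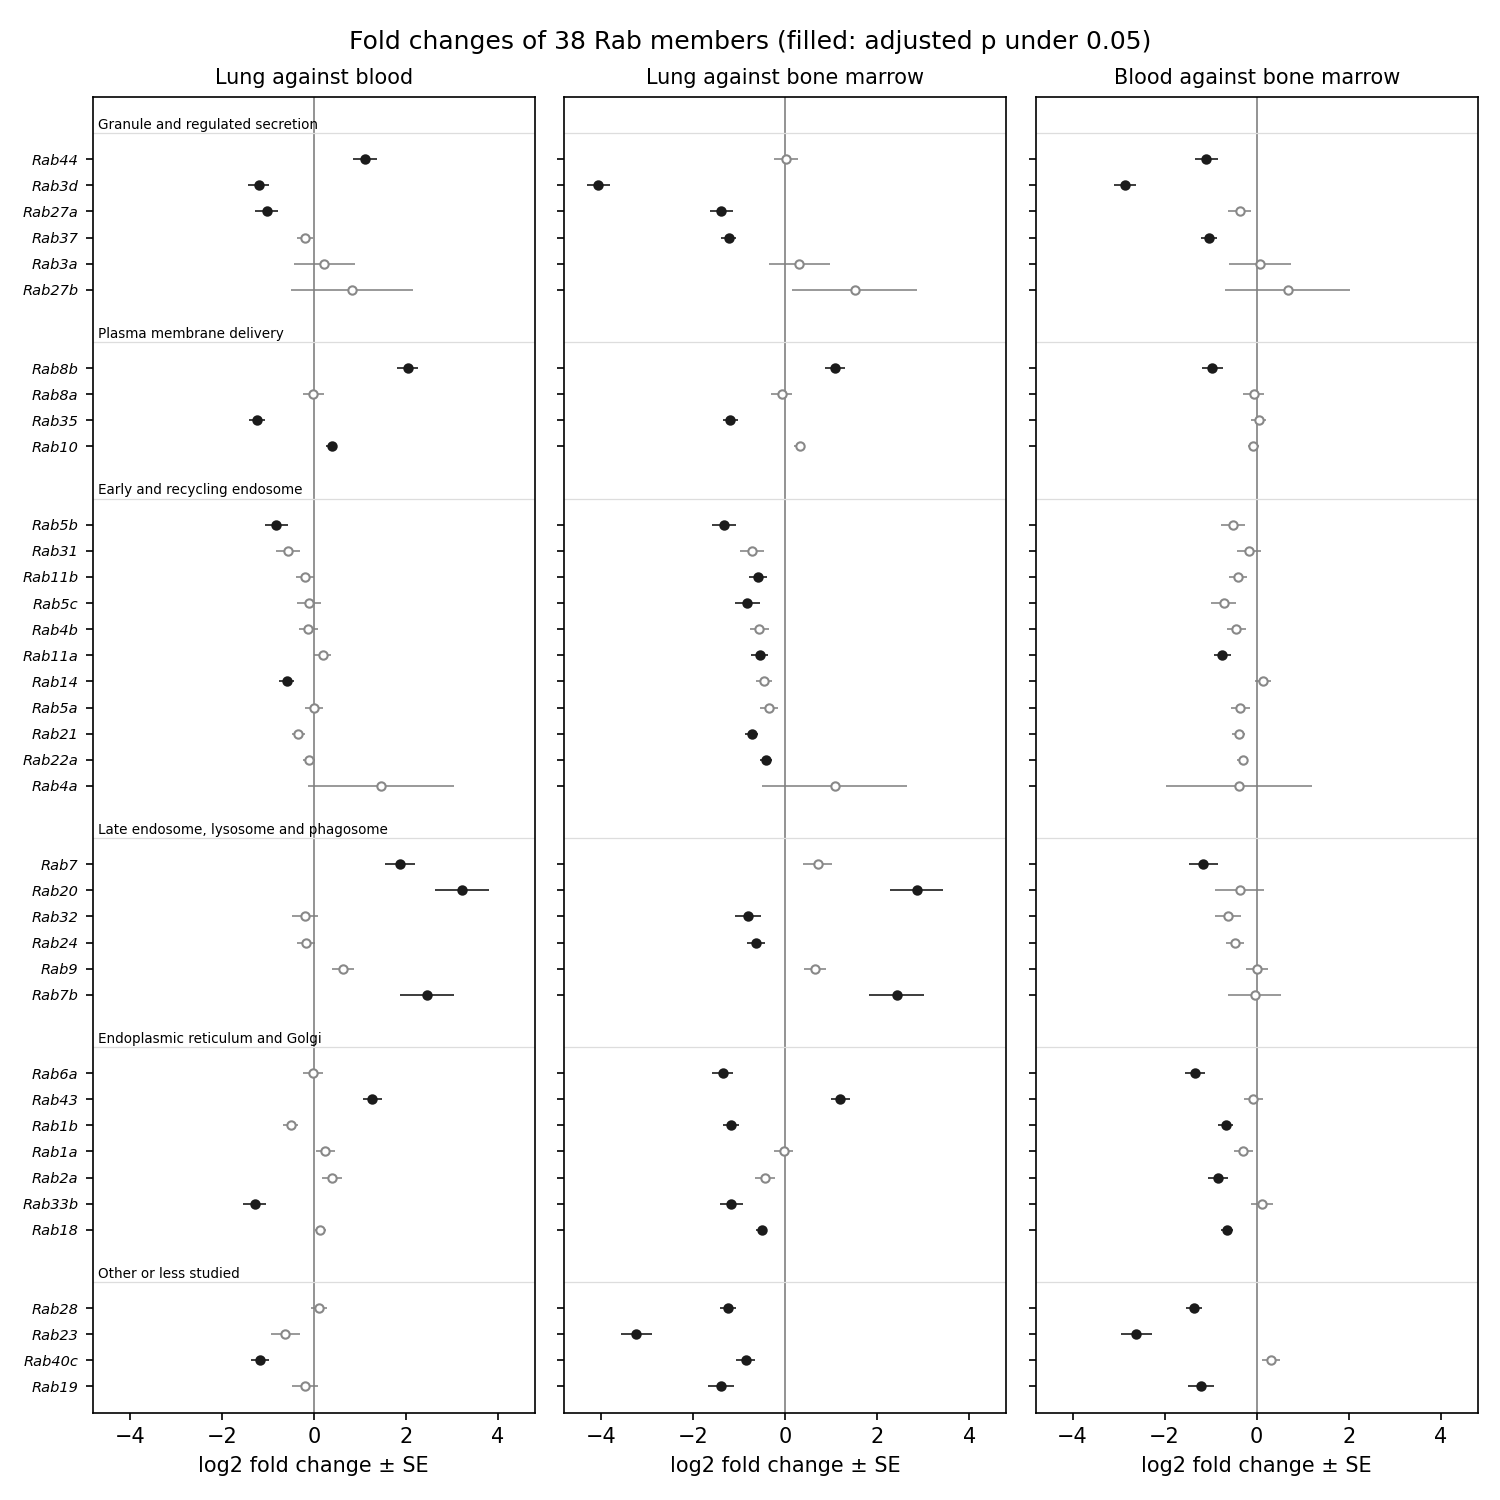
Log2 fold change ± SE (x axis) of 38 Rab members in lung against blood, lung against bone marrow and blood against bone marrow, filled where the adjusted p was under 0.05. Filled points lie mostly left of 0 in lung against bone marrow and all left of 0 in blood against bone marrow, with Rab3d furthest left in both. Rab20 lies furthest right in lung against blood and in lung against bone marrow.

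Of the 5 tested among the remaining Rabs, mostly of cilia or little studied, none rose, while 4 fell in lung against bone marrow, 3 in blood against bone marrow and 1 in lung against blood. Falls over all genes were 22.6%, 13.1% and 15.7% in these comparisons. Rab23, an inhibitor of Hedgehog signalling (Entrez gene 19335, chromosome 1, 33719896 to 33742564, plus strand), had 3.54, 2.63 and 1.39 CPM in lung, 3.38, 4.35 and 3.94 CPM in blood and 18.8, 25.7 and 26.9 CPM in bone marrow. Bone marrow was far above both other tissues. It fell by 3.24 ± 0.34 (adjusted p = 0.000148) in lung against bone marrow and by 2.61 ± 0.33 (adjusted p = 0.000806) in blood against bone marrow, both held in every alternative. Rab28, known from photoreceptor cilia, had 11.3, 11.6 and 14.7 CPM in lung, 11.2, 10.4 and 13 CPM in blood and 26.4, 27.8 and 35.1 CPM in bone marrow. It fell by 1.25 ± 0.17 (adjusted p = 0.000656) and 1.37 ± 0.17 (adjusted p = 0.000874) in those comparisons, again in every alternative and with bone marrow not overlapping the rest.

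Rab19, of cilium formation, had 3.16, 4.72 and 2.48 CPM in lung, 3.55, 3.86 and 4.44 CPM in blood and 7.37, 10.2 and 9.82 CPM in bone marrow. It fell in lung against bone marrow by 1.40 ± 0.29 (adjusted p = 0.00511), held in every alternative, and in blood against bone marrow by 1.21 ± 0.28 (adjusted p = 0.0167), lost without blood replicates 1 and 2 and bone marrow replicates 2 and 3 (adjusted p = 0.0643 to 0.0818), taken 1 at a time. Rab19 also lost its call in blood against bone marrow with limma on FPKM (adjusted p = 0.082), where limma on FPKM gave a log2 fold change of -0.68. Rab40c, part of a ubiquitin ligase, was lowest in lung instead, with 7.81, 10.5 and 6.68 CPM in lung, 17.2, 16.2 and 22.8 CPM in blood and 14.9, 15.1 and 15.3 CPM in bone marrow. It fell in lung against blood by 1.17 ± 0.20 (adjusted p = 0.00372), held in every alternative, and in lung against bone marrow by 0.86 ± 0.20 (adjusted p = 0.0101). Rab40c lost its call in lung against bone marrow with upper-quartile scaling and limma on FPKM (adjusted p = 0.0706 to 0.104), where limma on FPKM gave a log2 fold change of -0.51. Rab36 passed in none. Progenitor markers summed to 96.9, 78.1 and 33.0 CPM in lung, 4.19 to 6.97 CPM in blood and 349, 176 and 50.2 CPM in bone marrow, and their part in the members that were highest in bone marrow was not tested.

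The 10 members that were not tested, Rab17, Rab26, Rab33a, Rab38, Rab39b, Rab3b, Rab3c, Rab40b, Rab42 and Rab9b, had at most 26 reads in any library. Rab38, with Rab32 of pigment and lung surfactant organelles, was among them. In all, 32 of the 49 tested members passed in at least 1 comparison, 17 in none and 2 (Rab3d and Rab8b) in all 3. Over all genes, 28.9%, 38.2% and 21.4% passed in lung against blood, lung against bone marrow and blood against bone marrow. The share of all genes passing in at least 1 of them was not counted, so the 32 members have no background here. Rab20, Rab43, Rab7b and Rab8b were higher in lung than in both other tissues, and Rab27a, Rab33b, Rab35, Rab3d, Rab40c and Rab5b were lower. Rab11a, Rab18, Rab19, Rab1b, Rab23, Rab28, Rab37, Rab3d and Rab6a were higher in bone marrow than in both, and Rab44, Rab7 and Rab8b were lower in blood than in both. These classes rest on calls of the main fit, which held unequally. Those of Rab20, Rab43, Rab35, Rab3d, Rab23 and Rab28 held in every alternative. Rab5b in lung against blood held in 5 of 19, Rab11a in lung against bone marrow in 4 of 18 and Rab7 in blood against bone marrow in 9 of 18.

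Partner genes of Rabs, which include effectors and fusion proteins as well as exchange factors and GAPs, moved in both directions. Of 170 tested partner genes, 23 were higher and 51 lower in lung against blood (43.5%), 26 higher and 66 lower in lung against bone marrow (54.1%), and 18 higher and 36 lower in blood against bone marrow (31.8%), beside 13.2% and 15.7%, 15.6% and 22.6%, and 8.34% and 13.1% of all genes. The same shares stand beside the counts of each list that follows. Leaving out blood replicate 1, 2 or 3 brought the called partner genes in lung against blood to 43, 44 and 38, and in blood against bone marrow to 27, 24 and 25, where leaving out bone marrow replicates 2 and 3 gave 32 and 34. Among all genes, the same fits called 2527, 2338 and 1922 in lung against blood, beside 3900 in the main fit. In blood against bone marrow they called 1555, 1236, 1499, 1595 and 1665, beside 2892. Of 34 exchange factors, 8 rose and 7 fell in lung against blood, 6 rose and 11 fell in lung against bone marrow, and 4 rose and 10 fell in blood against bone marrow. Rabgef1, the Rab5 exchange factor Rabex-5, had 607, 714 and 1196 CPM in lung, 135, 32 and 28.7 CPM in blood and 427, 289.7 and 500.1 CPM in bone marrow. Blood lay below both other tissues, and Rabgef1 rose in lung against blood by 3.69 ± 0.64 (adjusted p = 0.00356). In blood against bone marrow it was -2.64 ± 0.61 (adjusted p = 0.0151), lost without blood replicates 2 and 3 and bone marrow replicate 3 (adjusted p = 0.0518 to 0.0762), taken 1 at a time. Dennd4a, an exchange factor of Rab10, had 1543, 1349 and 3153 CPM in lung, 702, 674 and 703 CPM in blood and 270.2, 222 and 253 CPM in bone marrow. No tissues overlapped, and lung was highest, with 3.02 ± 0.33 (adjusted p = 0.000195) on the log2 scale in lung against bone marrow. Rin2, a Rab5 exchange factor, was lower in lung than in bone marrow, at 22.3 ± 5.26 CPM in lung, 41.6 ± 6.37 CPM in blood and 183 ± 23.5 CPM in bone marrow, and fell by 3.03 ± 0.21 (adjusted p = 2.82e-05).

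Of 36 tested GAPs, 3 rose and 9 fell in lung against blood, 7 rose and 15 fell in lung against bone marrow, and 1 rose and 5 fell in blood against bone marrow. Tbc1d4, a GAP of Rab8 and Rab10, averaged 20.1 ± 1.34 CPM in lung, 2.5 ± 0.387 CPM in blood and 1.6 ± 0.672 CPM in bone marrow. It rose in lung by 3.00 ± 0.31 (adjusted p = 0.00045) against blood and by 3.65 ± 0.33 (adjusted p = 6.85e-05) against bone marrow. Of 9 prenylation and cycle genes, none rose and 1 fell in lung against blood, none rose and 3 fell in lung against bone marrow, and 1 rose and 2 fell in blood against bone marrow. Gdi2, the widely expressed GDI, averaged 141 ± 5.54 CPM in lung, 130.4 ± 5.45 CPM in blood and 198 ± 15.8 CPM in bone marrow. Its log2 fold change was -0.49 ± 0.13 (adjusted p = 0.0144) in lung against bone marrow, lost without blood replicates 1, 2 and 3 and bone marrow replicate 3 (adjusted p = 0.0574 to 0.117), taken 1 at a time, and -0.60 ± 0.13 (adjusted p = 0.0101) in blood against bone marrow, lost without blood replicates 1, 2 and 3 and bone marrow replicate 3 (adjusted p = 0.0532 to 0.212), taken 1 at a time. Gdi2 also lost its call in lung against bone marrow with DESeq2 size factors, upper-quartile scaling, limma on FPKM, no filter, at least 1 CPM in 3 libraries and 6 libraries (adjusted p = 0.0868 to 0.253), where upper-quartile scaling gave a log2 fold change of -0.17. Gdi2 also lost its call in blood against bone marrow with limma on FPKM and no filter (adjusted p = 0.0947 to 0.362), where limma on FPKM gave a log2 fold change of -0.24.

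Among 5 kinases and phosphatases of Rabs, 1 rose and 1 fell in lung against blood, 2 rose and 1 fell in lung against bone marrow, and 2 rose and 2 fell in blood against bone marrow. Lrrk2, the kinase that phosphorylates Rab8, Rab10, Rab35 and other Rabs, had 71.7, 83.9 and 104 CPM in lung, 138, 137 and 120.2 CPM in blood and 576, 744 and 697 CPM in bone marrow. It fell by 2.96 ± 0.20 (adjusted p = 2.48e-05) in lung against bone marrow and by 2.35 ± 0.19 (adjusted p = 9.48e-05) in blood against bone marrow. In lung against blood it was -0.61 ± 0.19 (adjusted p = 0.0374), lost with any library left out except lung replicate 3 (adjusted p = 0.0519 to 0.2). Lrrk2 also lost its call in lung against blood with DESeq2 size factors, the DESeq2 test, no filter, at least 1 CPM in 3 libraries and 6 libraries (adjusted p = 0.0612 to 0.165). Of 20 endosomal effectors, 2 rose and 10 fell in lung against blood, 3 rose and 8 fell in lung against bone marrow, and 3 rose and none fell in blood against bone marrow. Eea1, the endosome tether recruited by Rab5, averaged 52.4 ± 18.8 CPM in lung, 27 ± 2.93 CPM in blood and 17.4 ± 1.38 CPM in bone marrow and rose in lung against bone marrow by 1.59 ± 0.23 (adjusted p = 0.000846). Of 20 lysosomal and Golgi effectors, 3 rose and 9 fell in lung against blood, 2 rose and 8 fell in lung against bone marrow, and 3 rose and 3 fell in blood against bone marrow. Plekhm1, an effector of Rab7, averaged 59.1 ± 6.09 CPM in lung, 124 ± 15.3 CPM in blood and 204 ± 20.3 CPM in bone marrow and fell in lung against bone marrow by 1.79 ± 0.16 (adjusted p = 6.16e-05). Of 30 fusion proteins (SNAREs), 5 rose and 8 fell in lung against blood, 6 rose and 12 fell in lung against bone marrow, and 3 rose and 9 fell in blood against bone marrow. Stx11, a syntaxin of cytotoxic lymphocyte secretion, averaged 635 ± 177 CPM in lung, 146 ± 28.6 CPM in blood and 608 ± 105 CPM in bone marrow, and rose in lung against blood by 2.12 ± 0.26 (adjusted p = 0.000787) and fell in blood against bone marrow by 2.06 ± 0.26 (adjusted p = 0.000782), as Rab44 did.

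The sample files of lung and blood hold separate RSEM counts, which allow lung against blood to be computed again. Of 46 members tested in both, 43 had the same call. Rab10, Rab14 and Rab5b passed with the series table in 9 libraries and not with RSEM in 6, at edgeR adjusted p = 0.0529, 0.128 and 0.0802. With the same 6 libraries, the series table did not call them either, at edgeR adjusted p = 0.0848, 0.0665 and 0.0928. The largest difference in log2 fold change among members that passed was 0.33, for Rab43, at 0.94 with RSEM and 1.27 with the series table.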

How the data were processed

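Neutrophil RNA-seq was analysed from the authors' deposited series table, which holds whole read counts and FPKM for 36780 transcripts of 24532 genes in 9 libraries. The deposited lung and blood sample files hold expected counts and TPM for 55450 genes, while those of bone marrow repeat the series table's counts as deposited. Series counts were 1.87 to 1.90 times the RSEM totals, for a reason not stated. Per the submitters' processing notes, mm10, STAR, Bowtie2, StringTie 2.1.3b, RSEM and DESeq2 were used, with no role given for each. Whether counting used strand is not given in the sources used here, and the labels' protocols name both a standard and a stranded library kit. The sort gates are not stated there. Column numbers of the series table run 1 above the replicate numbers in the titles, so columns were matched through the library name that each sample's own file carries.

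Transcript counts were summed per gene and fitted for all 9 libraries with edgeR 4.0.16 (R 4.3.3), with genes kept by filterByExpr, scaling by trimmed means, tissue means as the design and robust quasi-likelihood tests, two-sided, with Benjamini-Hochberg adjustment over all 13510 genes at 0.05. Standard errors were obtained from each log2 fold change and its F statistic. Tested on simulated data, the fit recovered most large planted changes but few 2-fold ones, so small changes can be missed. Alternatives used DESeq2 1.42.0, limma 3.58.1, other scalings and filters, a replicate block, 6 libraries, 1 library left out, log2(FPKM + 1) and, for lung against blood, RSEM expected counts, rounded to whole numbers.

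The members and lists were chosen with earlier results of these data known, and roles were assigned after the files were read. Named with values were members that passed in at least 1 comparison with 5 CPM or more in the highest tissue, and a fixed set of well-studied members. Partner genes were named from those passing with the largest changes per list, at most 3 per comparison, plus Unc13d, Lrrk2, Gdi2, Rabgef1 and Stxbp2, and the text describes some of them, picked with their values known. Rab34, Rab30 and Rab6b fell outside the rule and are mentioned with their values seen. Deviations of same-numbered libraries correlated at 0.127 to 0.518 for lung with blood and at 0.153 to 0.186 for lung with bone marrow, all over 0.1, and at 0.0489 to 0.382 for blood with bone marrow. Those of different-numbered libraries correlated at -0.504 to 0.453, -0.225 to 0.145 and -0.416 to 0.405 in the same order. The same-numbered and different-numbered ranges overlapped for lung with blood and for blood with bone marrow. Lung replicate 1 correlated at 0.453 with blood replicate 2 and at 0.127 with blood replicate 1. Replicate 3 libraries correlated at 0.518 for lung with blood, 0.186 for lung with bone marrow and 0.382 for blood with bone marrow. Each correlated negatively with every replicate 1 and 2 library of the other tissues. The labels do not say that a number marks a shared animal or batch. The fit with the number as a block is therefore given beside the results of the first pair and the second where it alters a call. In blood against bone marrow, the block also called Rab21, Rab24, Rab32, Rab4b, Rab5b and Rab5c lower in blood (edgeR adjusted p = 0.015 to 0.0341).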

Additional observations from a re-analysis of the deposited data

How the results depend on the processing

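None of the differences of named genes that passed (14, 24 and 13 of members, and 22, 26 and 25 of partner genes, in lung against blood, lung against bone marrow and blood against bone marrow) reversed its direction under any alternative run, and calls of other genes were followed by their counts alone. Of the log2 fold changes that passed, those of 7 of 14 named members in lung against blood kept their call in all 19 alternatives, and those of 14 of 24 in lung against bone marrow and 3 of 13 in blood against bone marrow in all 18. The alternatives were planned. Depth limited members under 1 CPM, where a library holds few reads. Same-numbered libraries of blood and bone marrow correlated at 0.0489 to 0.382, not all over 0.1, unlike those of lung with either. Different-numbered libraries reached 0.453 for lung with blood and 0.405 for blood with bone marrow. The replicate block gave 19 members called in lung against blood, 34 in lung against bone marrow and 22 in blood against bone marrow.

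With DESeq2 size factors, there were 4 Rab members lower in lung against blood, 8 Rab members called in blood against bone marrow and 8 Rab members lower in blood against bone marrow. With limma on FPKM, there were 11 Rab members lower in lung against blood and 2 Rab members higher in blood against bone marrow. With upper-quartile scaling, there were 10 Rab members higher in lung against bone marrow and 12 Rab members lower in lung against bone marrow. With the DESeq2 test, there were 11 Rab members higher in lung against bone marrow and 2 Rab members higher in blood against bone marrow. With the replicate block, there were 10 Rab members higher in lung against bone marrow, 22 Rab members called in blood against bone marrow, 2 Rab members higher in blood against bone marrow and 20 Rab members lower in blood against bone marrow. With no filter on low counts, there were 13 Rab members lower in lung against bone marrow, 7 Rab members called in blood against bone marrow and 7 Rab members lower in blood against bone marrow. With the 6 libraries of the tissues compared, there was 1 Rab member higher in blood against bone marrow. Leaving out 1 library gave 9 to 19 for Rab members called in lung against blood, 5 to 9 for Rab members higher in lung against blood, 3 to 10 for Rab members lower in lung against blood and 17 to 32 for Rab members called in lung against bone marrow. The range was 3 to 7 for Rab members higher in lung against bone marrow, 13 to 25 for Rab members lower in lung against bone marrow, 3 to 18 for Rab members called in blood against bone marrow and 0 to 1 for Rab members higher in blood against bone marrow. The range was 3 to 17 for Rab members lower in blood against bone marrow, 38 to 99 for Rab partner genes called in lung against blood and 24 to 73 for Rab partner genes called in blood against bone marrow. Among all genes, the main fit called 3900 in lung against blood and 2892 in blood against bone marrow. The latter had 2413 with DESeq2 size factors, 2063 with no filter and 3990 with the replicate block. Leaving out 1 library gave 1922 to 5852 of all genes in lung against blood and 1236 to 3965 in blood against bone marrow. The cause of these changes was not tested.

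Log2 fold changes of members, and of 1 partner gene, that did not pass changed sign as follows, none passing on the other side of 0. With DESeq2 size factors, lung against blood had 0.0018 for Rab22a, 0.13 for Rab5a, 0.0103 for Rab5c, 0.10 for Rab6a and 0.11 for Rab8a. With DESeq2 size factors, lung against bone marrow had 0.13 for Rab1a and 0.0864 for Rab8a. With upper-quartile scaling, lung against blood had 0.0592 for Rab22a, 0.0335 for Rab4b, 0.14 for Rab5a, 0.0471 for Rab5c, 0.12 for Rab6a and 0.14 for Rab8a. With upper-quartile scaling, lung against bone marrow had 0.26 for Rab1a and 0.22 for Rab8a. With upper-quartile scaling, blood against bone marrow had 0.0783 for Rab10, 0.0762 for Rab43, 0.14 for Rab7b and 0.0874 for Rab8a. With the DESeq2 test, lung against blood had 0.0012 for Rab22a, 0.13 for Rab5a, 0.0103 for Rab5c, 0.10 for Rab6a and 0.11 for Rab8a. With the DESeq2 test, lung against bone marrow had 0.13 for Rab1a and 0.0864 for Rab8a. With limma on FPKM, lung against blood had -0.0233 for Rab28 and -0.0218 for Gdi2. With limma on FPKM, lung against bone marrow had 0.16 for Rab1a and 0.12 for Rab8a. With limma on FPKM, blood against bone marrow had 0.26 for Rab10, 0.0622 for Rab1a, 0.0526 for Rab22a, 0.18 for Rab31, 0.26 for Rab43, 0.0023 for Rab5a, 0.0605 for Rab7b and 0.29 for Rab8a. With no filter on low counts, lung against blood had 0.0339 for Rab5a, 0.0077 for Rab6a and 0.0161 for Rab8a. With no filter on low counts, lung against bone marrow had 0.087 for Rab1a and 0.049 for Rab8a. With no filter on low counts, blood against bone marrow had 0.0152 for Rab10, 0.025 for Rab43, 0.0461 for Rab7b and 0.0329 for Rab8a. With at least 1 CPM in 3 libraries, lung against blood had 0.10 for Rab5a, 0.0729 for Rab6a and 0.0819 for Rab8a. With at least 1 CPM in 3 libraries, lung against bone marrow had 0.14 for Rab1a and 0.10 for Rab8a. With at least 1 CPM in 3 libraries, blood against bone marrow had 0.0044 for Rab10, 0.0145 for Rab43, 0.0354 for Rab7b and 0.0226 for Rab8a. With the 6 libraries of the tissues compared, lung against blood had 0.0028 for Rab5a. With the 6 libraries of the tissues compared, lung against bone marrow had 0.0111 for Rab1a. With the 6 libraries of the tissues compared, blood against bone marrow had 0.0793 for Rab10, 0.08 for Rab43, 0.12 for Rab7b and 0.0859 for Rab8a. With RSEM expected counts, lung against blood had 0.0741 for Rab5a, 0.0053 for Rab5c and 0.0417 for Rab6a. With limma-voom, blood against bone marrow had 0.0404 for Rab7b. With 1 library left out, lung against blood ranged from -0.0509 to 0.28 for Rab11a, -0.0328 to 0.39 for Rab1a, -0.0481 to 0.24 for Rab28, -0.59 to 0.0616 for Rab32, -0.21 to 0.63 for Rab3a, -0.34 to 0.0171 for Rab4b and -0.31 to 0.13 for Rab5a. Others there ranged from -0.32 to 0.0431 for Rab5c, -0.33 to 0.15 for Rab6a and -0.31 to 0.18 for Rab8a. With 1 library left out, lung against bone marrow ranged from -0.33 to 0.0753 for Rab1a, -0.13 to 0.71 for Rab3a, -0.26 to 0.16 for Rab44 and -0.39 to 0.0517 for Rab8a. With 1 library left out, blood against bone marrow ranged from -0.13 to 0.0457 for Rab10, -1.22 to 0.069 for Rab20, -0.42 to 1.17 for Rab27b, -0.26 to 0.0467 for Rab31, -0.0033 to 0.37 for Rab33b, -0.0761 to 0.27 for Rab35 and -0.20 to 0.31 for Rab3a. Others there ranged from -0.17 to 0.14 for Rab43, -1.31 to 0.22 for Rab4a, -0.37 to 0.36 for Rab7b, -0.16 to 0.14 for Rab8a and -0.13 to 0.26 for Rab9. The cause was not tested.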
